A study of Homo sapiens with 12 samples.

Results

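This account concerns 1 contrast: 17β-estradiol (E2) in cells whose inducible estrogen receptor had not been turned on. The cells are MDA-MB-468, an established human breast cancer line called triple negative because it lacks clinical estrogen receptor, progesterone receptor and ERBB2 amplification, here carrying a doxycycline-controlled copy of estrogen receptor beta (ERβ1, from the gene ESR2). The samples were chosen by their titles: the 3 libraries titled E2 and the 3 titled DMSO, numbered 1 to 3 in each group, which make 6 of the 12 libraries of the series. The uninduced E2 group received 10 nM E2 for 4 hours and no doxycycline. The uninduced vehicle group received 0.1% DMSO for 4 hours and no doxycycline. The 2 further groups, used here only as a yardstick, were induced E2 and induced vehicle, which had 50 ng/mL doxycycline for 48 hours before the same 4 hours of 10 nM E2 or 0.1% DMSO. All 4 groups carry the ESR2 transgene and were grown without phenol red in charcoal-stripped serum, at 10% for 3 days beforehand and at 5% during the experiment. The uninduced cells are therefore not the parental line, and leakage from the uninduced transgene cannot be told apart from the cells' own ESR2 in gene counts.

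Estradiol acts mainly through nuclear receptors. ERα (ESR1) and ERβ (ESR2) bind the hormone, pair up, and settle at estrogen response elements or beside other DNA-bound factors, where coactivators such as the NCOA proteins and corepressors such as NCOR1 set the transcriptional outcome. A membrane receptor, GPER, can pass on the hormone signal through growth factor and MAP kinase pathways, whose early transcriptional products include FOS, EGR1 and ATF3. Charcoal stripping removes most steroids from serum.

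No gene was called for E2 in the uninduced cells. The result given here is therefore how large a change could have gone unseen, gene by gene. For each gene the bound is the end of the 95% interval of its log2 change that lies farther from 0. Over all 14541 tested genes the median bound was 0.173 on the log2 scale, a change of 1.13-fold in either direction. For the known estrogen-induced genes it was 0.17, or 1.12-fold.

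Uninduced libraries held 7.89 M to 33.3 M counts, the lowest being vehicle number 1. The labels do not say that the replicates were separate cultures, so p-values and intervals measure the spread between these samples, which may be technical. The cells' identity was read from marker genes. The basal and epithelial list includes KRT8, KRT18, KRT19, EPCAM and CDH1, which are not particular to basal cells. Sums over it therefore do not set basal against luminal identity. All 13 basal and epithelial markers had a mean of at least 1 TPM, RSEM's level per transcript length scaled to a common total, and they summed to 10300 to 10900 TPM in the uninduced E2 libraries and 10700 to 10900 TPM in the uninduced vehicle libraries. EGFR, the growth factor receptor amplified in this line, stood between 2370 and 2520 CPM, counts scaled to a common library total, with E2 and between 2420 and 2650 CPM with vehicle. Of the luminal markers, TFF1 was at 0 in all 6 libraries, and PGR, the progesterone receptor gene, had 2 counts summed over the E2 libraries and 4 over the vehicle libraries. Other luminal markers were expressed: FOXA1 averaged 35.2 ± 0.434 CPM with E2 and 37.3 ± 2.5 CPM with vehicle, GATA3 48.1 ± 2.38 CPM with E2 and 50.2 ± 1.11 CPM with vehicle, and ERBB2 67.7 ± 1.3 CPM with E2 and 68.6 ± 0.344 CPM with vehicle (SD, n = 3 each). The luminal genes summed to 88.8 to 92.8 TPM with E2 and 92.6 to 99.1 TPM with vehicle. Of markers of other cell types, the fibroblast genes DCN and LUM and the endothelial gene CLDN5 were at 0 in all 6. The 6 fibroblast genes summed to 8.92 to 9.58 TPM with E2 and 8.05 to 9.67 TPM with vehicle, the 5 endothelial genes to 12.6 to 17.7 TPM with E2 and 13.6 to 18.5 TPM with vehicle, and the 6 immune genes to 46.8 to 56 TPM with E2 and 45.4 to 56.4 TPM with vehicle. The defining genes of these types were not all absent: the fibroblast collagen gene COL1A1 averaged 23.3 ± 0.552 CPM in E2 libraries and 21.8 ± 2.25 CPM in vehicle libraries, the endothelial receptor gene KDR 43.7 ± 8.23 CPM with E2 against 44.9 ± 8.26 CPM with vehicle, and the monocyte gene CD14 31.5 ± 4.25 CPM with E2 against 31.7 ± 5.39 CPM with vehicle (SD, n = 3 each).

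All 3 estrogen receptor genes were detected at a low level. In bulk RNA, few expressing cells and little RNA per cell cannot be told apart. ESR1 read 1.87, 1.35 and 1.47 TPM in the E2 libraries numbered 1 to 3, against 2.1, 1.42 and 1.2 TPM in the vehicle libraries. The groups overlapped, and the change from the fit was 0.06 ± 0.14 on the log2 scale (SE), with a 95% interval of −0.23 to 0.35. A change of ESR1 beyond 1.27-fold thus lay outside the interval. These TPM rest on 96.72, 135.95 and 110.17 expected counts with E2 and 49, 111 and 89.04 with vehicle.

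ESR2 read 2.37, 1.23 and 1.24 TPM with E2, against 1.36, 1.17 and 1.64 TPM with vehicle. E2 library 1 was the highest of the 6, and the other E2 libraries fell within the vehicle range. The change was 0.22 ± 0.2 (SE) on the log2 scale, with an interval of −0.21 to 0.65, the widest of the 3 receptors (1.57-fold). Without number 3 this bound was 1.06, or 2.08-fold. Induction gives the scale of these levels: the induced vehicle libraries had 149 ± 15.6 TPM of ESR2 (SD, n = 3), and the uninduced vehicle libraries, at 1.39 ± 0.237 TPM, held 0.933% of that.

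GPER, the membrane receptor, read 2.54, 1.93 and 2.1 TPM with E2, against 1.77, 2.27 and 1.99 TPM with vehicle. The groups again overlapped, with a change of 0.03 ± 0.17 (SE) and an interval of −0.32 to 0.39 on the log2 scale. The bound was 0.747 without number 2 and 0.638 without vehicle library 2. In mean TPM over the 6 libraries the order was GPER at 2.1 ± 0.272, ESR1 at 1.57 ± 0.342 and ESR2 at 1.5 ± 0.457 (SD, n = 6), and the ranges of neighbours in that order overlapped. Among tested genes these levels stood at the 16.4th, 14th and 13.7th percentiles, where the median tested gene had 18.1 TPM and the lower quartile was 4.76 TPM.

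**Figure D1:**
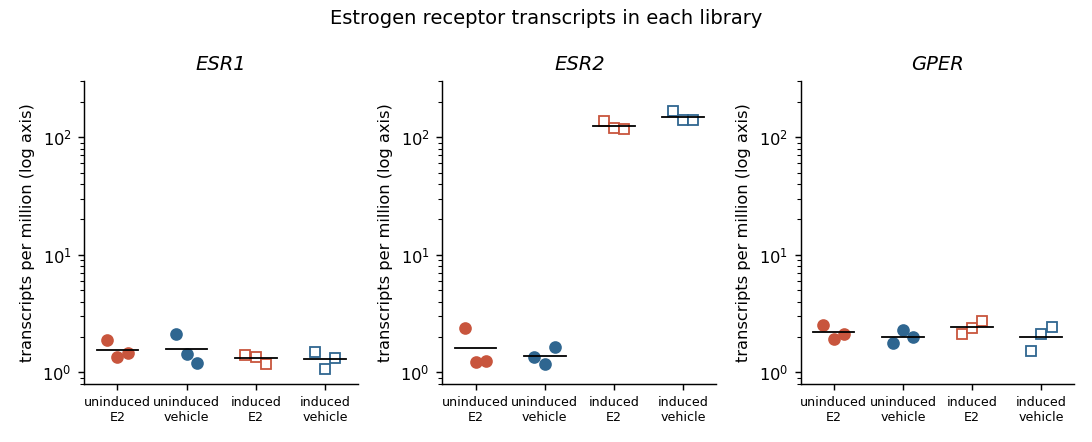
TPM (log axis) of ESR1, ESR2 and GPER in each of the 12 libraries, with a bar at each group mean. The uninduced E2 and uninduced vehicle libraries overlap for all 3 genes at 1.17 to 2.54 TPM, while ESR2 alone stands far higher in the induced groups.

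The orphan receptor ESRRA, which is related to the estrogen receptors but does not take estradiol as its ligand, was the most abundant of the related and steroid receptors examined, at 70.6 ± 1.73 TPM with E2 and 71.9 ± 1.56 TPM with vehicle (SD, n = 3 each). Its log2 change was bounded at 0.1, or 1.07-fold (1.11-fold without number 2). The glucocorticoid receptor NR3C1 (19 ± 0.338 TPM with E2, 20.3 ± 1.55 TPM with vehicle) and the mineralocorticoid receptor NR3C2 were also tested. Of this list of 7, 0 of 3 tested genes were called, and ESRRB and ESRRG were at 0 counts in all 6 libraries. A count of 0 over a group allows up to 3 counts, or 0.0393 CPM over the E2 libraries and 0.0503 CPM over the vehicle libraries, for counting error only.

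Across the transcriptome, edgeR's quasi-likelihood test called 0 of 14541 genes (0%) at an adjusted p under 0.05, with a smallest adjusted p of 0.377. At an unadjusted p under 0.05 there were 451 genes (3.1%), where evenly spread p-values would give 727. limma-voom and DESeq2 with the same replicate block also called 0 genes and had 294 and 138 at an unadjusted p under 0.05. With only the 6 uninduced libraries in the fit the counts were 0 and 758. The files' dates set number 1 apart from numbers 2 and 3, and the later date alone gave 0 calls and 706 genes at an unadjusted p under 0.05. The earlier date holds 1 library per group and so gives no value of its own. In induced cells the same fit called 3460 genes for E2 (23.8%): 1963 rose (13.5%) and 1497 fell (10.3%).

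The bound tightened steadily with expression. Of 2400 genes at 100 CPM and over, the median bound was 0.093 (1.07-fold) and the 95th percentile 0.151 (1.11-fold). Of 4279 genes at 30 to 100 CPM they were 0.126 (1.09-fold) and 0.197 (1.15-fold), and of 3275 genes at 10 to 30 CPM 0.19 (1.14-fold) and 0.307 (1.24-fold). Every gene of 30 CPM or more was placed within 1.5-fold by a pair of one-sided tests, adjusted over all tested genes. Below that the bounds widened quickly. The 1906 genes at 3 to 10 CPM had a median bound of 0.327 (1.25-fold), and 1863 of them were within 1.5-fold. The 1222 genes at 1 to 3 CPM had 0.603 (1.52-fold), with 745 within 1.5-fold and 1182 within 2-fold. The 1459 tested genes under 1 CPM had 1.07 (2.1-fold), with a 95th percentile of 2.07 (4.21-fold) and 823 within 2-fold.

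Over all levels 11015 genes (75.8%) were placed within 1.25-fold, 12606 (86.7%) within 1.5-fold and 13851 (95.3%) within 2-fold. The 690 genes not placed within 2-fold included 636 under 1 CPM and 54 above. No bound could be set for 11 tested genes, all under 1 CPM, because the counts of at least 1 group gave no finite interval. Of the 23228 genes in the files, 4809 had 0 counts in all 6 uninduced libraries, GPR77 and PTH1R among them although tested, and 3880 had counts there but too few to be tested.

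**Figure D2:**
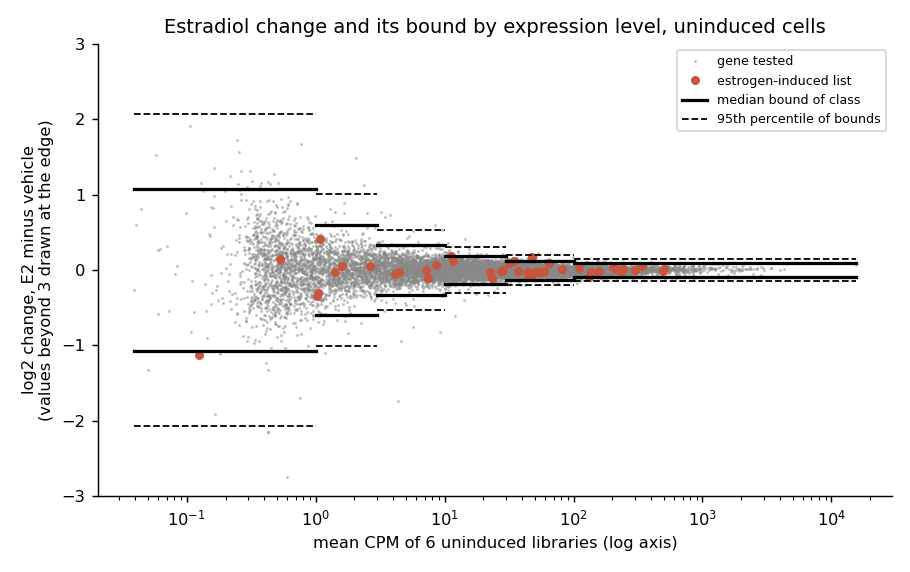
Log2 change of each tested gene in uninduced cells, E2 minus vehicle, against its mean CPM over 6 libraries (log axis), leaving out the 11 genes with no finite bound. Solid and dashed lines give the median and 95th percentile of the bounds in each level class, from 0.093 and 0.151 at 100 CPM and over to 1.07 and 2.07 under 1 CPM, and orange points are estrogen-induced genes.

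Known estrogen-induced genes were then read one by one. The list held 55 genes known mainly from ERα-positive breast cells, and 45 could be tested. None of the 45 was called (against 0% of all genes), and 2 had an unadjusted p under 0.05 (against 3.1%). Their median log2 change was −0.005, against 0 over all tested genes, with 19 of 45 above 0. By the one-sided tests, 35 were within 1.25-fold, 40 within 1.5-fold and 44 within 2-fold. These are near the shares of all tested genes, 75.8%, 86.7% and 95.3%. The same list in induced cells had 38 genes that rose (against 13.5% of all genes) and 1 that fell, AGR2 (against 10.3%), with a median log2 change of 0.67. For 37 of the 45, the test of the difference, induced change minus uninduced change, was above 0 at an adjusted p under 0.05 (edgeR), against 8.86% of all genes, and for 0 it was below 0 (against 5.88%). The 2 changes share no library. The lists were chosen with earlier results of these data known, so the induced counts and these shares are a description. WISP2, counted here, passed the count filter only through the induced libraries.

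The strongest responder of the list in induced cells was EGR3, an immediate early zinc finger factor and direct estrogen target. It read 0.509, 0.418 and 0.795 CPM in uninduced E2 libraries, against 0.375, 0.566 and 0.516 CPM in uninduced vehicle libraries. The groups overlapped at under 1 CPM, and the log2 change was 0.15 ± 0.3 (SE), with an interval of −0.48 to 0.78. Induced libraries had 48.9 ± 5.63 CPM with E2 and 1.12 ± 0.165 CPM with vehicle (SD, n = 3 each), a 42.9-fold rise. The upper end of the uninduced interval was 14.3% of that induced log2 change. Without number 2 the bound was 1.37 on the log2 scale.

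GREB1, a chromatin-bound ERα cofactor and one of the most used estrogen reporters, read 1.42, 1.28 and 1.71 CPM with E2, against 1.25, 1.51 and 1.35 CPM with vehicle. The groups overlapped, the log2 change was −0.02 ± 0.28 (SE), and the interval, −0.6 to 0.55, reached 21.8% of the induced change of 2.54. Its bound was 0.602, but 0.994 without the replicate block, 0.906 without number 2, 0.915 without number 3 and 0.904 without E2 library 3. AREG, a ligand of EGFR, read 3.34, 2.03 and 2.42 CPM with E2, against 4.25, 1.51 and 2.34 CPM with vehicle. Library 1 was the highest of both groups, and the change was 0.05 ± 0.18 (SE), bounded at 1.34-fold, but at 2.13-fold without the replicate block.

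WISP2, a secreted matricellular protein gene, was the member with the widest bound. It read 0.113, 0.0299 and 0.0795 CPM with E2, against 0.25, 0.0755 and 0.199 CPM with vehicle. Each E2 library was below the vehicle library of its number, yet the groups overlapped and the counts were so low that the interval ran from −2.7 to 0.44 on the log2 scale, and WISP2 was the tested member not placed within 2-fold. A rise beyond 1.36-fold lay outside the interval, while its induced rise was 8.03-fold. WISP2 passed the count filter, which used all 12 libraries, only through the induced ones. These averaged 5.12 ± 0.265 CPM with E2 and 0.648 ± 0.129 CPM with vehicle (SD, n = 3 each).

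Of the receptor kinase RET, uninduced E2 libraries held 1.25, 0.747 and 0.715 CPM, against 1.37, 1.17 and 0.913 CPM in vehicle libraries. Of the RNA-binding protein gene RBM24 they held 0.849, 1.02 and 0.715 CPM, against 1.75, 0.944 and 0.953 CPM. Both sat near 1 CPM with overlapping groups, and their log2 intervals of −0.97 to 0.27 and −0.91 to 0.3 ended well short of their induced changes of 2.52 and 2.5. Without number 2 the bound of RBM24 was 1.43.

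Better expressed members gave tight limits. WNT4, the secreted Wnt ligand of the progestational mammary gland, read 6.23, 7.71 and 7.51 CPM with E2, against 6.87, 7.66 and 8.34 CPM with vehicle. Its bound was 1.25-fold, set by the lower end of its interval, and a rise beyond 1.08-fold lay outside that interval. RAPGEFL1, a guanine nucleotide exchange factor-like gene, read 7.81, 9.26 and 9.06 CPM with E2, against 7.99, 8.61 and 8.34 CPM with vehicle (bound 1.25-fold). ADORA1, the adenosine A1 receptor, read 22.2, 23.7 and 21 CPM with E2, against 20, 23.3 and 23.5 CPM with vehicle (bound 1.12-fold, or 1.19-fold without number 3). In all 3 genes the groups overlapped.

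TGFA, another EGFR ligand, read 46.2, 41.5 and 42.3 CPM with E2, against 49.6, 41.6 and 43.5 CPM with vehicle, and SLC7A5, the large neutral amino acid transporter, 584, 488 and 455 CPM against 571, 492 and 451 CPM. In both genes library 1 was the highest of each group, and the groups overlapped. For SLC7A5 the log2 interval was −0.06 to 0.08, and its upper end was 6.94% of the induced change of 1.17. Its bound was 0.273 without the replicate block and 0.127 without vehicle library 2.

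NPY1R, a neuropeptide Y receptor and estrogen target, had the smallest p of the list. It read 45.2, 52.1 and 53.7 CPM with E2, against 44.2, 45.3 and 46.2 CPM with vehicle. Each E2 library was above the vehicle library of its number, while E2 library 1 fell within the vehicle range. The log2 change was 0.17 ± 0.047 (SE), with an interval of 0.07 to 0.27, an unadjusted p of 0.00184 and an adjusted p of 1 (edgeR), so NPY1R was not called. The induced change, 1.39, exceeded the uninduced one by 1.23 ± 0.06 (SE, adjusted p = 3.24e-11, edgeR).

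SGK3, a serum and glucocorticoid regulated kinase gene, was the second member with an unadjusted p under 0.05. It read 36.8, 36.6 and 34.7 CPM with E2, against 31.3, 33.4 and 33.4 CPM with vehicle. The groups did not overlap, as for SIAH2, a ubiquitin ligase gene, and these were 2 of 45 members, where groups did not overlap for 6.44% of all tested genes, with E2 higher in 3.64% and lower in 2.8%. The log2 change of SGK3 was 0.12 ± 0.048 (SE, unadjusted p = 0.0186), bounded at 1.17-fold.

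**Figure D3:**
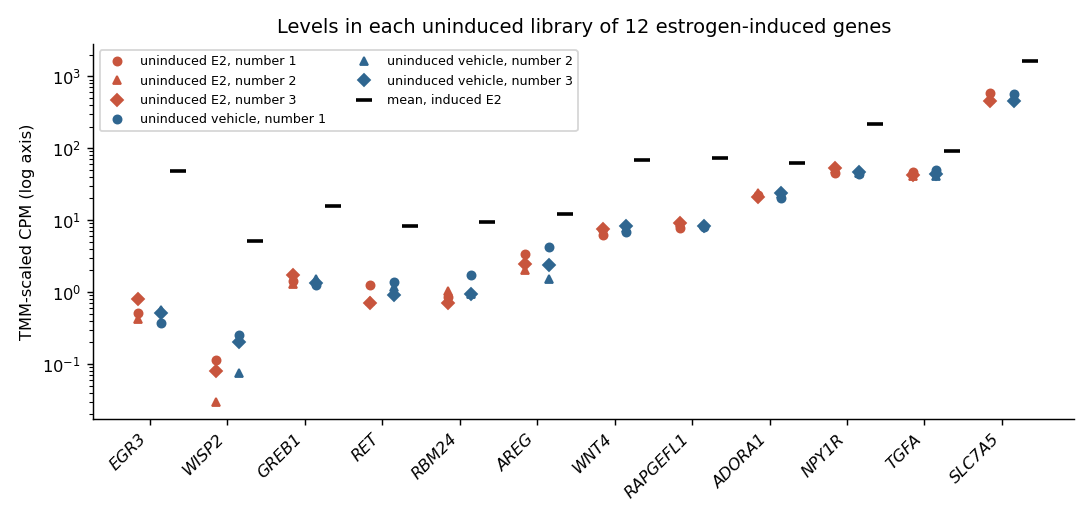
TMM-scaled CPM (log axis) of the 12 estrogen-induced genes with the largest induced change, in each uninduced E2 (left) and uninduced vehicle (right) library, with a black bar at the mean of the induced E2 libraries. The 2 uninduced groups overlap for all 12 genes, and the induced E2 mean lies above all 6 uninduced libraries, at 48.9 CPM for EGR3 and 215 CPM for NPY1R.

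Other classical targets were read by their bounds. The cell cycle genes CCND1 and MYC had bounds of 0.1 and 0.09 on the log2 scale (1.07-fold each), and in induced cells they rose by 0.5 and 0.46. The transcription factor XBP1 read 336, 352 and 346 CPM with E2, against 323, 343 and 333 CPM with vehicle, and was bounded at 1.09-fold, against an induced log2 rise of 0.85. IGFBP4, an IGF-binding protein, and NRIP1, a corepressor that estrogen itself induces, were bounded at 1.07-fold and 1.05-fold. CTSD, the lysosomal protease cathepsin D, was bounded at 1.09-fold, BCL2, the survival factor, at 1.2-fold, and RARA, the retinoic acid receptor, at 1.19-fold. The bound of MYC was 1.12-fold without number 2, 1.11-fold without number 3 and 1.1-fold without E2 library 2, that of IGFBP4 1.12-fold without E2 library 2, that of NRIP1 1.08-fold without number 3 and that of BCL2 1.34-fold without number 3. For CTSD it was 1.14-fold without E2 library 2 or vehicle library 1 and 1.16-fold by DESeq2. Beside WISP2, EGR3, RET and RBM24, RASGRP1 was not placed within 1.5-fold. It stood near 1 CPM, its interval ran from −0.28 to 1.09, and it was not called in induced cells either.

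Another 21 tested members complete the list, and for all 21 the E2 and vehicle libraries overlapped. Bounds were widest for KRT13, a keratin gene, PDZK1, a scaffold protein gene, CA12, a carbonic anhydrase, and SUSD3, at 1.48-fold, 1.36-fold, 1.3-fold and 1.23-fold. In induced cells these genes rose by 1.16, 0.7, 1.01 and 0.81 on the log2 scale. The insulin and IGF signaling genes IRS1 and IGF1R were bounded at 1.13-fold and 1.08-fold, against induced rises of 1.11 and 0.33. The replication licensing gene CDC6 and the transcription factor genes MYB and E2F1 were bounded at 1.15-fold, 1.1-fold and 1.07-fold. Induced CDC6 and MYB rose by 0.48 and 0.68, and E2F1 had a change of 0.03 that was not called. CELSR2 and ELOVL2, a fatty acid elongase gene, were bounded at 1.14-fold each, KCNK5, a potassium channel gene, at 1.11-fold, and FHL2, MREG, TSKU and TPD52L1 at 1.09-fold each. SLC39A6, a zinc transporter gene, was bounded at 1.08-fold, FKBP4, a steroid receptor cochaperone gene, and STC2 at 1.07-fold each, and SLC9A3R1 and THBS1, the thrombospondin gene, at 1.06-fold each. Of these 12 genes, CELSR2, KCNK5, FHL2, MREG, TPD52L1, FKBP4, STC2, SLC9A3R1 and THBS1 rose in induced cells, by 0.17 to 1.16, while ELOVL2, TSKU and SLC39A6 were not called. Without the replicate block the bounds of KRT13, PDZK1 and STC2 were 2.57-fold, 2.31-fold and 1.31-fold, without vehicle library 2 that of KRT13 was 1.9-fold, and without number 3 that of CA12 was 1.51-fold. The other bounds of these 21 genes that moved by over 1.5 times reached at most 1.26-fold.

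The other 10 members had too few counts over the 12 libraries for the test. TFF1, TFF3, CXCL12, HSPB8, CALCR and SERPINA1 had 0 counts in all 6 uninduced libraries. OLFM1 had 1 count over the E2 libraries and 0 over the vehicle libraries. PGR had 2 against 4, AGR3 5 against 3 and PKIB 22 against 12 counts. Scaled by library size, the PKIB ratio was 1.43, with an exact interval of 0.68 to 3.18 that covers counting error only. In the induced E2 libraries TFF1 and PGR, classical readouts of estrogen action, had 0 and 3 summed counts.

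**Figure D4:**
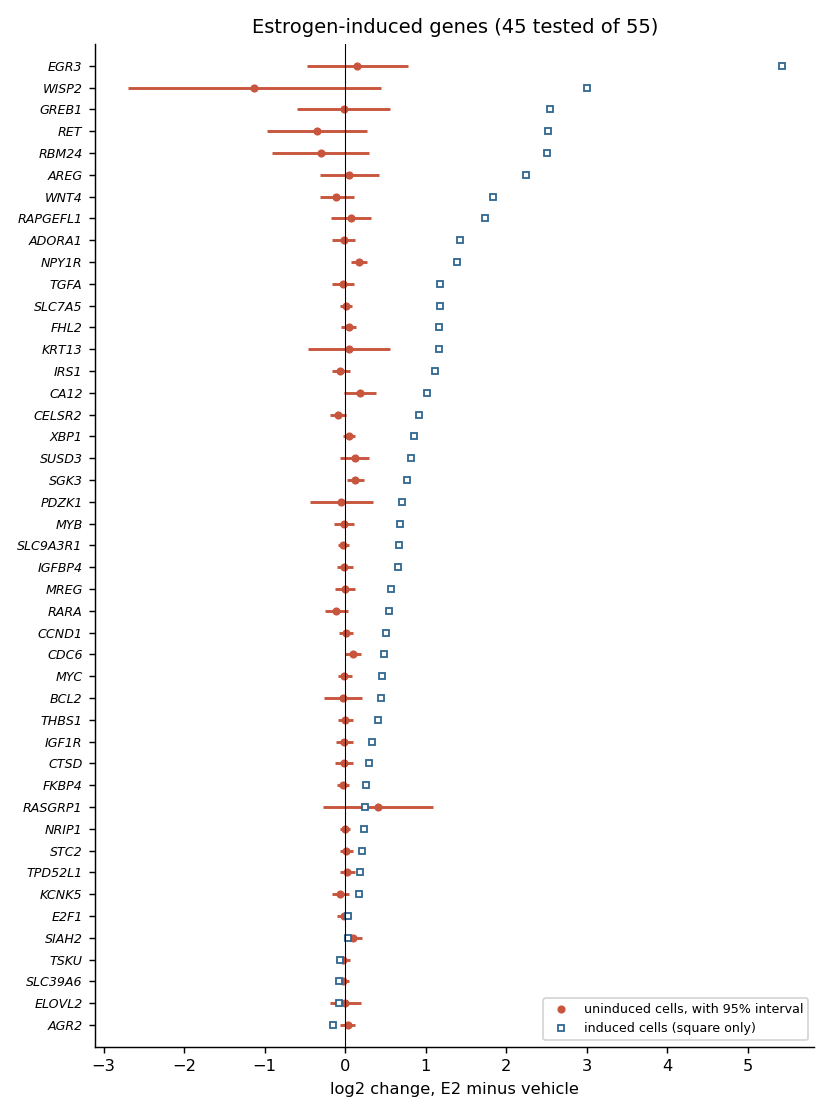
Log2 change, E2 minus vehicle, of 45 tested estrogen-induced genes in uninduced cells (circle with its 95% interval) and in induced cells (open square, no interval drawn), ordered by the induced change. Intervals of well expressed genes hug 0, such as 0.01 with −0.06 to 0.08 for SLC7A5, while those of WISP2 and RASGRP1 are wide.

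The palindromic estrogen response element was looked for in RefSeq promoter windows (GRCh38.p14, from 250 bases before to 50 bases after the start). The motif searched was GGTCANNNTGACC, which reads the same on both strands. It was in 20 of 35116 windows (0.057%) and in 0 of the 45 estrogen-induced genes matched by symbol. Of 11206 tested genes with a window, 3 held it, and they are shown because they are the tested promoters with the full palindrome, in capitals, within these windows.
HEATR8-TTC4, chr1:54641705-54641757, plus strand: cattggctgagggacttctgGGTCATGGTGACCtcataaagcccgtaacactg
ZNF669, chr1:247104498-247104550, minus strand: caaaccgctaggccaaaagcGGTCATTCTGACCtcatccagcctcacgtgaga
SLC35B2, chr6:44257737-44257778, minus strand: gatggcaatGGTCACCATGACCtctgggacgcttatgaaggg
None of the 3 was called in uninduced or induced cells. SLC35B2, a Golgi sulfate donor transporter gene at 124 CPM, had a log2 change of 0.03 ± 0.035 (SE), bounded at 1.07-fold. ZNF669, a zinc finger gene at 8.06 CPM, had −0.13 ± 0.095 (SE), bounded at 1.25-fold, and the read-through entry HEATR8-TTC4, at 0.471 CPM, was bounded at 2.55-fold. Estrogen receptors bind mostly at distal sites, which these windows do not cover.

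Genes linked to GPER and to growth factor signaling were examined next. They are not specific to membrane-initiated action, which was not tested. All 8 GPER-linked genes were tested, 0 were called, and none had an unadjusted p under 0.05. All 8 were within 1.5-fold, as were 86.7% of all tested genes. FOS, the AP-1 subunit, read 3.68, 3.73 and 4.61 CPM with E2, against 3.12, 5.36 and 4.17 CPM with vehicle. The vehicle libraries spanned the E2 range, and the change was −0.13 ± 0.14 (SE), with an interval of −0.42 to 0.16, the widest of the list. Its bound was 0.677 without number 3 and 0.633 without vehicle library 3. ATF3, a stress-induced factor, read 27.6, 28.2 and 25.8 CPM with E2, against 25.7, 26.7 and 24.4 CPM with vehicle, higher in 3 of 3 pairs but with overlapping groups (0.1 ± 0.059 SE, unadjusted p = 0.121). VEGFA, the angiogenic factor, was bounded at 1.11-fold, EGR1 at 1.11-fold, and CTGF and CYR61, secreted matricellular genes, at 1.12-fold and 1.13-fold. The bounds of VEGFA and EGR1 were 1.18-fold and 1.17-fold without number 2, and that of CTGF 1.32-fold without the replicate block and 1.19-fold without number 3. In induced cells 7 of the 8 rose and CTGF fell, where 13.5% of all tested genes rose and 10.3% fell. This is a description, since the list was chosen with earlier results of these data known.

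Of 37 tested immediate early genes, 0 were called, 0 had an unadjusted p under 0.05, 34 were within 1.5-fold and 36 within 2-fold. NR4A3, an orphan nuclear receptor at 0.264 to 0.962 CPM, was the member outside 2-fold, with an interval of −0.54 to 1.19 and a bound of 1.87 without number 3 or 1.83 without vehicle library 3. FOSB and EGR3 were placed within 2-fold but not 1.5-fold. JUN, JUNB, IER2 and KLF6 were bounded at 1.09-fold, 1.09-fold, 1.06-fold and 1.07-fold. The bound of JUN was 1.15-fold without number 3 and 1.14-fold without vehicle library 2, and that of IER2 1.09-fold without number 2 and 1.1-fold without number 3. FOSL2 had the second smallest p of the list, 0.135, at 61.6, 64.6 and 60.6 CPM with E2 and 69.9, 65.5 and 63.7 CPM with vehicle. The 4-hour harvest is later than the peak of many of these transcripts, and earlier times were not analysed here.

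Genes known to fall with estrogen in breast cells were also read. Of 7 tested, 0 were called, and all 7 were within 1.25-fold (against 75.8% of all genes). NEDD9, a focal adhesion scaffold gene, had the smallest p. It read 77.1, 66.9 and 67.7 CPM with E2, against 68.9, 62.1 and 62.6 CPM with vehicle. The E2 library was higher in 3 of 3 pairs while the groups overlapped, for a log2 change of 0.12 ± 0.04 (SE, unadjusted p = 0.00702), opposite to the direction its list names. Its bound was 0.203, and 0.312 without the replicate block. In induced cells NEDD9 rose by 0.79. EGFR, also of this list, had a log2 change of −0.05 ± 0.035 (SE), bounded at 1.09-fold.

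The coregulators and chaperones through which a receptor would act were present and tightly bounded. All 21 receptor partners were tested, all were within 1.25-fold (against 75.8% of all genes), and 0 were called. The widest bound was 1.13-fold. NCOR1, the nuclear receptor corepressor, read 121, 122 and 120 CPM with E2, against 132, 131 and 125 CPM with vehicle. The groups did not overlap, in 1 of the 21 genes against 6.44% of all genes, and the change was −0.1 ± 0.034 (SE, unadjusted p = 0.011). The coactivators NCOA1, NCOA2 and NCOA3 were bounded at 1.12-fold, 1.1-fold and 1.09-fold (NCOA3 at 1.14-fold without vehicle library 3), and the chaperones HSP90AA1 and HSP90AB1, which hold steroid receptors ready for ligand, at 1.04-fold and 1.05-fold. FOXA1, a pioneer factor for ERα, was bounded at 1.13-fold and GATA3 at 1.11-fold.

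Enzymes that make or clear estradiol were also expressed. Of 19, 15 were tested, 0 were called, and 12 were within 1.25-fold (against 75.8% of all genes). All 15 were within 2-fold (against 95.3%), but 3 were not placed within 1.5-fold. The widest bound was that of HSD17B11 at 1.99-fold, or 3.1-fold without the replicate block and 2.93-fold without number 1. HSD17B2, which oxidises estradiol to estrone, averaged 64 ± 8.7 CPM in E2 libraries and 64.2 ± 9.12 CPM in vehicle libraries (SD, n = 3 each). CYP1B1, a hydroxylase of estradiol, stood at 426, 329 and 326 CPM with E2, against 451, 325 and 320 CPM with vehicle. SULT1E1, the estrogen sulfotransferase, had the only unadjusted p under 0.05 of the list. It read 2.09, 3.38 and 3.42 CPM with E2, against 1.5, 2.79 and 2.62 CPM with vehicle, higher in 3 of 3 pairs with overlapping groups (0.35 ± 0.16 SE, unadjusted p = 0.0418). Aromatase (CYP19A1), which makes estradiol, had 4 counts over the E2 libraries and 2 over the vehicle libraries.

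Several of these genes show what the replicate number does. CYP1A1, another estradiol hydroxylase, read 70.8, 28 and 25.2 CPM with E2, against 81.1, 24.3 and 25.8 CPM with vehicle. The libraries numbered 1 were the highest of both groups, yet the E2 change was −0.01 ± 0.069 (SE) once the number was in the fit. Its bound was 0.15, but 1.13 without the replicate block, 0.264 without number 2, and 0.25 and 0.258 without vehicle libraries 1 and 2. DKK1, a Wnt antagonist, behaved alike at 38.9, 20.6 and 20.3 CPM with E2, against 39.7, 21.1 and 21.6 CPM with vehicle, and its bound was 1.12-fold, but 1.61-fold without the replicate block. Without the block the bounds of HSD17B2 and CYP1B1 were 1.22-fold and 1.26-fold, and without number 3 that of CYP1B1 was 1.09-fold.

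The genes that E2 moved most in induced cells served as a yardstick for the uninduced ones. Of 226 genes that rose at least 2-fold in induced cells, 0 were called in uninduced cells, 10 had an unadjusted p under 0.05, and 106 had a log2 change above 0, with a median of −0.007. For 177 of the 226 (78.3%), the most that the uninduced interval allowed in the same direction was under 50% of the induced log2 change, with a median of 22.1%. For 181 (80.1%) the difference of the 2 changes was called. Both shares are a description, since these genes were selected by their induced change, against which the 50% limit is also measured. WISP2, SHISA2 and LOXL4, which passed the count filter only through the induced libraries, are among the 226. Over all genes the difference of the 2 changes was called for 2143 (14.7%), but for 1232 without the replicate block, 1254 without number 2 and 1187 without number 3. Of 69 genes that fell at least 2-fold, 0 were called in uninduced cells and the median was −0.018. For 50 (72.5%) the most allowed was under 50% of the induced change, by which they too were selected.

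Single genes of this yardstick covered a range of levels. A4GALT, a glycosphingolipid galactosyltransferase gene, read 2.49, 3.67 and 2.9 CPM in uninduced E2 libraries, against 2.37, 3.36 and 3.1 CPM in uninduced vehicle libraries. The groups overlapped, and a rise beyond 1.26-fold lay outside the interval, against an 8.04-fold rise in induced cells. ADAMTS1, a secreted metalloproteinase gene, read 38.4, 43.2 and 45.8 CPM with E2, against 37.2, 43.3 and 47 CPM with vehicle. Its log2 interval was −0.12 to 0.11, against a change of −1.93 in induced cells. SOX11, a developmental transcription factor gene, read 16, 21.5 and 21.2 CPM with E2, against 17.2, 24.3 and 23.2 CPM with vehicle, lower in 3 of 3 pairs (−0.13 ± 0.07 SE, unadjusted p = 0.0688), against −1.54 in induced cells. ADAMTS5, STON1 and DKK1 likewise had intervals that reached 15.5%, 14.9% and 8.14% of their induced falls. Without the replicate block the bounds were 1.47-fold for A4GALT, 1.2-fold for ADAMTS1, 1.49-fold for SOX11, 1.4-fold for STON1 and 1.61-fold for DKK1, and without number 3 that of ADAMTS1 was 1.14-fold.

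THRSP, a lipogenic nuclear protein gene, had the smallest uninduced p of the 10 largest called rises among genes whose average log2 CPM over the 12 libraries was 1 or more. It read 1.25, 2.09 and 1.87 CPM with E2, against 1.12, 1.62 and 1.27 CPM with vehicle. Each E2 library was above the vehicle library of its number and the groups overlapped, for a log2 change of 0.4 ± 0.22 (SE, unadjusted p = 0.075). The interval, −0.05 to 0.85, reached 28.7% of the induced change of 2.97. Low counts left SHISA2, LOXL4, VWF and MGAT3, at 0.304 to 0.634 CPM, with bounds of 2.6-fold, 2.26-fold, 1.85-fold and 1.75-fold, all under their induced rises of 26.8-fold, 9.97-fold, 7.86-fold and 6.09-fold. SHISA2, at 0.189 to 0.568 CPM in the uninduced libraries, and LOXL4, at 0 to 0.437 CPM there, passed the count filter only through the induced ones. BSND and DOK7, near 1 CPM, were bounded at 1.56-fold and 1.51-fold. Without number 3 the bounds of SHISA2, LOXL4 and VWF were 4.76-fold, 4.32-fold and 2.55-fold, without vehicle library 3 those of SHISA2 and LOXL4 were 4.72-fold and 3.76-fold, and without number 2 those of VWF and BSND were 2.69-fold and 2.1-fold. The bound of MGAT3 was 2.38-fold without E2 library 2, and that of BSND 2.14-fold without vehicle library 2.

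Across 3290 genes called in induced cells whose average log2 CPM was 1 or more, the uninduced change rose by 0.00806 for each unit of the induced change, with a Pearson r of 0.0684. With no floor on expression the same slope was 0.00866 over the 1963 genes called higher and 0.134 over the 1497 called lower, 0.0133 over the 226 higher by at least 2-fold and 0.221 over the 69 lower by at least 2-fold. This is a description across genes, which are not independent replicates. Of 117 genes that were called in induced cells and had an unadjusted p under 0.05 in uninduced cells, 21 were higher in both and 35 lower in both, while 25 were higher in uninduced and lower in induced cells and 36 the reverse.

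**Figure D5:**
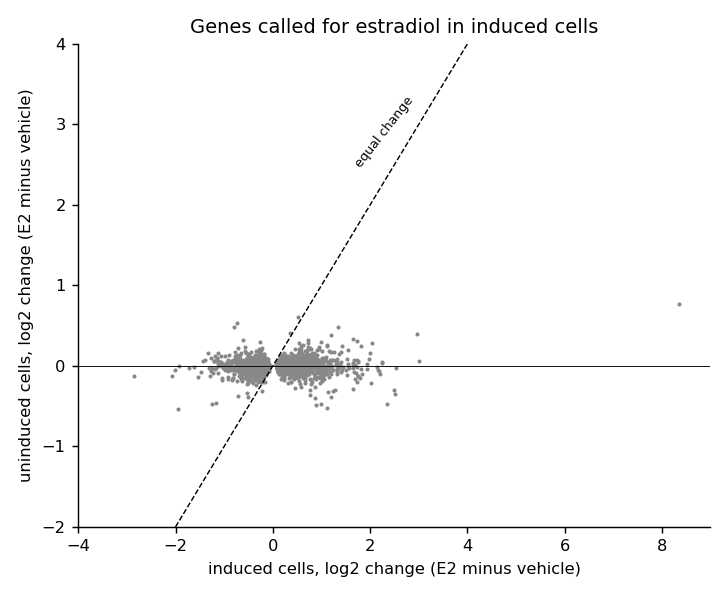
Log2 change, E2 minus vehicle, in uninduced cells against that in induced cells, for the 3328 genes called in induced cells with a mean of at least 1 CPM in uninduced cells; the dashed line marks equal change. Uninduced changes lie between −0.54 and 0.77, while induced changes run from −2.85 to 8.35, the last being RGPD6, a gene with near-identical copies. RGPD6 had 0 CPM in every induced vehicle library and an SE of 9900 on its induced change, so 8.35 is not a measured size.

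The smallest p-values of the contrast were read at the level of the libraries. The gene with the smallest of all was the read-through entry ZNF816-ZNF321P, named here after its values were seen. It was listed at 0 CPM in all 3 E2 libraries, against 2.75, 0 and 2.78 CPM in vehicle libraries (unadjusted p = 2.59e-05, adjusted p = 0.377, edgeR). ZNF321P, which lies within it by name, ran the other way, at 3.11, 2.96 and 3.46 CPM with E2 and 0, 2.83 and 0 CPM with vehicle. The sum of the 2 entries was 3.11, 2.96 and 3.46 CPM with E2, against 2.75, 2.83 and 2.78 CPM with vehicle. In vehicle libraries 1 and 3 all the counts of the pair stood in the joined entry, and in the other 4 libraries all stood in ZNF321P.

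NBL1, a secreted BMP antagonist gene, was second. It read 19.4, 13.7 and 15.8 CPM with E2, against 15.9, 9.55 and 11.7 CPM with vehicle, higher in 3 of 3 pairs with overlapping groups (log2 0.41 ± 0.08 SE, unadjusted p = 5.77e-05, adjusted p = 0.419, edgeR). Its bound was 0.581, and 1.04 without the replicate block. The overlapping read-through entry C1orf15-NBL1 read 7.08, 16.5 and 12.7 CPM with E2, against 12, 19.5 and 16.7 CPM with vehicle. Summed, the 2 entries gave 26.5, 30.2 and 28.5 CPM with E2, against 27.9, 29.1 and 28.4 CPM with vehicle, a log2 ratio of means of 0. TMEM189-UBE2V1, among the lower genes, read 5.26, 1.91 and 0 CPM with E2, against 4.62, 5.63 and 8.89 CPM with vehicle, and its sum with TMEM189 and UBE2V1 was 174, 173 and 172 CPM against 175, 172 and 174 CPM.

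The remaining genes of smallest p were read by direction. Higher with E2 were TRIP4, a transcription coactivator gene (30.5, 31 and 30.6 CPM, against 26.9, 25.8 and 27.1 CPM with vehicle), and IFI27, an interferon-induced gene (120, 103 and 92.5 CPM, against 101, 91.5 and 86.2 CPM). The TRIP4 groups did not overlap and the IFI27 groups did, with bounds of 1.25-fold and 1.2-fold. ZNF177, at 3.17, 2.96 and 2.98 CPM with E2 and 2.75, 1.96 and 1.11 CPM with vehicle, had a log2 change of 0.76 ± 0.2 (SE, unadjusted p = 0.00104) and an interval that reached 2.27-fold. Lower with E2 were ZFYVE26, a lysosome-related gene (40.6, 37.4 and 38.7 CPM, against 46.5, 45.6 and 41.9 CPM), LOC728377, CCDC142 and EPPK1, an epithelial plakin gene, with bounds of 1.23-fold, 1.37-fold, 1.43-fold and 1.17-fold. Each had an adjusted p of at least 0.81.

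Leaving out 1 uninduced library or 1 replicate number gave 0 calls in 3 of 9 cases and 1 to 4 calls in the other 6. Without number 2 there were 4 (ABHD14A-ACY1, RPL21, ZNF321P and ZNF816-ZNF321P), without number 3 there was POC1B-GALNT4, and without vehicle libraries 1, 2 and 3 there were AMY1C, then ZNF321P with ZNF816-ZNF321P, then TMX2-CTNND1. Without E2 library 1 it was NBL1. Of these 8 entries 4 are read-through loci that join 2 genes, NBL1 and ZNF321P overlap such an entry, AMY1C is 1 of several near-identical amylase copies, and RPL21 has many processed copies, and the part that the sharing of reads among overlapping or similar entries plays in these calls was not tested. None is on the estrogen target lists. The same kind of entry was common among genes of 1 CPM or more with wide bounds: of the 54 genes at 1 CPM or more not placed within 2-fold, 21 (38.9%) were named as 2 joined genes, against 99 of 13082 (0.757%) at that level.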

How the data were processed

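The authors' deposited files hold RSEM expected counts per gene symbol for 23228 genes, and each gene's fraction of transcripts. RSEM 1.1.16, DESeq 1.7.10 and hg19 are named in the submitters' processing notes; an aligner is not given in these sources. RSEM shares ambiguous reads among overlapping or similar genes, so such entries are less certain.

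Expected counts were rounded and fitted with edgeR 4.0.16 (R 4.3.3), TMM scaling, and filterByExpr (count of at least 10, total of at least 15), which kept 14541 genes (62.6%). The filter used all 12 libraries, so a gene low in uninduced cells could enter through the induced ones. All 12 libraries entered 1 quasi-likelihood model with 4 group means and the replicate number as block, leaving 6 residual degrees of freedom. Contrasts were E2 minus vehicle in uninduced cells, the same in induced cells, and the second minus the first. P-values were adjusted by Benjamini-Hochberg over all tested genes. The SE came from the model's Fisher information scaled by the moderated dispersion, and 95% intervals from the t distribution. Placement within a fold limit used a pair of one-sided tests at an adjusted p under 0.05. CPM are TMM-scaled, and TPM are the deposited fraction scaled to the usual common total. SD are over n = 3 unless given as n = 6. Depth was 7.89 M to 33.3 M counts, and a floor of 3 counts and exact ratio intervals cover counting error only.

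Same-numbered uninduced libraries deviated together over 13125 genes (3 pairs, correlation 0.176 to 0.307), and other-numbered ones at −0.262 to 0.0764. Over all 4 groups the pattern was less clean. Same-numbered pairs ran from −0.00762 to 0.376 (12 of 18 over 0.1), and other-numbered pairs from −0.344 to 0.289 (8 of 36 over 0.1). Deviations were taken from the mean of 3 libraries, which by itself pulls other-numbered values below 0. The pairing comes from the numbers in the titles, which go with the dates in the file names.

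Genes named were ESR1, ESR2 and GPER, all estrogen-induced genes, the 12 of these with the largest called induced change by library, members of smallest p in the other lists, the 5 genes of smallest p in each direction whose average log2 CPM was 1 or more, and the 10 largest rises and 5 largest falls among genes called in induced cells with the same expression minimum. Other genes were named as examples after their values were seen, among them the overlapping entries. Members and lists were chosen with earlier results of these data known. Alternatives were no block, 6 libraries alone, RLE or upper quartile scaling, other filters, limma-voom (limma 3.58.1), DESeq2 1.42.0 and other thresholds. Each uninduced library and each number was also left out, but no induced library was left out singly. Further list members enter the counts without being named, and some items are not reported here.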

Additional observations from a re-analysis of the deposited data

Results flagged for a closer look

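The E2 change differed between induced and uninduced cells in 2143 of 14541 genes by the test of the difference itself (edgeR's quasi-likelihood test, adjusted p under 0.05). Differences are given as the induced log2 change minus the uninduced log2 change. Among estrogen-induced genes they were 5.27 for EGR3, 4.14 for WISP2, 2.87 for RET, 2.81 for RBM24, 2.56 for GREB1, 2.2 for AREG, 1.95 for WNT4, 1.66 for RAPGEFL1, 1.45 for ADORA1, 1.23 for NPY1R, 1.21 for TGFA and 1.16 for SLC7A5. Among the other large induced rises they were 4.3 for SHISA2, 3.7 for BSND, 3.03 for LOXL4, 2.95 for A4GALT, 2.82 for VWF, 2.8 for MGAT3, 2.74 for DOK7 and 2.57 for THRSP. Among the large induced falls they were −2.72 for ADAMTS5, −1.96 for DKK1, −1.93 for ADAMTS1, −1.61 for STON1 and −1.41 for SOX11. These 25 genes were picked for their induced change, so the differences are large in part by that choice, and they describe where the uninduced bound lies relative to the induced change. Among them, WISP2, SHISA2 and LOXL4 passed the count filter only through the induced libraries.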

How the results depend on the processing

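Without the replicate block, 0 genes were called for E2 in uninduced cells, as with it, while the difference between induced and uninduced cells was called for 1232 genes in place of 2143. Without the block, genes within 2-fold numbered 13770 and within 1.5-fold 12461. With no filter on low counts 1 gene was called in uninduced cells, ZNF816-ZNF321P. Leaving out 1 uninduced library or 1 number gave 0 to 4 calls in uninduced cells and 1187 to 2255 for the difference. Over all alternatives the median bound ran from 0.16 to 0.231, genes within 2-fold from 13170 to 14107, and genes within 1.5-fold from 11848 to 13074. Bounds of 170 genes followed singly had 3052 alternative values, of which 412 moved by more than the spread between pairs, 384 of them upward. Leaving out 1 uninduced library or 1 number moved the bound by over 1.5 times, up or down, for 76 of the 170 genes. The largest rise was by a factor of 1.97, and some bounds fell, as for CELSR2 from 0.191 to 0.0892 without vehicle library 2. Leaving out the block moved 40 by over 1.5 times, with a largest rise of 7.53 times for CYP1A1. The 25 genes' differences kept their direction and their call in all 425 alternative values, none of which left out a single induced library. The cause of these shifts was not tested. Bounds rest on 3 libraries a group, 4 hours and 10 nM, and genes under 1 CPM are limited by depth. They do not speak to other times, other doses or protein levels.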
